A study of Mus musculus with 12 samples.

Results

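The comparison set the pressure-overloaded heart without lincRNA-p21 against the pressure-overloaded heart of heterozygous littermates, in RNA from the apex of the left ventricle. Transverse aortic constriction (TAC) is an operation that narrows the aortic arch, so that the left ventricle pumps against a raised pressure. The groups were 3 libraries from global lincRNA-p21 knockout mice and 3 from littermates that the labels call controls and give as lincRNA-p21 heterozygous, all taken 8 weeks after TAC. No wild-type group was compared, and the labels give neither strain, sex nor age. The rule took every gene with a normalised read count of at least 10 in at least 3 of the 12 libraries of the study, which left 13916 genes of the 56350 in the table and 42434 outside the comparison. The other 6 libraries, 3 of each genotype after sham surgery, entered the same fit and are given beside the TAC values. The labels do not say that the libraries of a group came from separate animals, so the p-values measure the spread between these libraries.

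LincRNA-p21 (gene symbol Trp53cor1) is a long noncoding RNA that p53 induces and that is transcribed next to Cdkn1a, the gene of the cell cycle inhibitor p21. It has been described as a repressor within the p53 response and as a regulator of its neighbour Cdkn1a. Under pressure overload the ventricle is known to enlarge, to re-express genes of the fetal heart, to lower genes of fatty acid oxidation and mitochondrial respiration, and to fill with matrix laid down by activated fibroblasts. Each of these programmes was followed through a list of its genes.

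The 6 TAC libraries held 10323605 to 12742726 reads assigned to genes. Values are normalised read counts, that is reads over a size factor of the library, and means are given ± SD with n = 3. Differences are knockout minus control on the log2(value + 1) scale ± SE, a scale that shrinks the changes of genes at low counts, and a gene is called where the adjusted p of limma-trend (Benjamini-Hochberg over all 13916 genes) was under 0.05. On the first principal component the control TAC libraries scored 34.4 to 59.8 and the knockout TAC libraries −8.48 to 2.46. Knockout TAC replicate 3 stood apart from the other two on the second, at 15.6 against −22.9 and −33.7. Mitochondrial genes took 15.5 to 17.1% of the reads in the control and 19.1 to 19.99% in the knockout TAC libraries. The groups also differed in how values followed transcript length, the longest annotated transcript of a gene. Spearman's rho over genes was taken between length and the value relative to the mean of all libraries. It was 0.326 to 0.409 in the control TAC libraries. In knockout TAC replicates 1, 2 and 3 it was −0.261, −0.343 and 0.148. In the sham libraries rho was −0.332 to 0.120 in controls and −0.309 to −0.0653 in knockouts. Results with the trend removed come from a fit after the trend of length and GC content was subtracted in each library. The part of this length trend in the called differences was not tested, and since RNA quality per library is not given in the sources used here, a technical source of the trend and the genotype cannot be told apart.

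The targeted gene was near the limit of detection. Trp53cor1 (ENSMUSG00000085912.2, chr17:29057430-29079179 in GRCm38.p6) had 4, 0 and 3 reads in the control TAC libraries and none in the 3 knockout TAC libraries. The 7 control reads of 33832286 came to 0.207 CPM, and the absence of reads among 34742724 allows up to 0.0864 CPM, taking 3 counts over the group as the limit. The control level was 2.40 times that limit. With only 7 reads the control level is itself uncertain, so 2.40 is no lower bound on the fall in knockouts. An exact two-sided permutation test over the 6 libraries gave p = 0.4, where the smallest p it allows is 0.1. The labels do not say which part of the gene was deleted. Its neighbour Cdkn1a (ENSMUSG00000023067.14, chr17:29090976-29100727) had values of 560.2, 1041 and 135 in the control and 266, 236 and 293 in the knockout libraries. The control libraries spread over a wide range that held all 3 knockout values, the mean being 579 ± 453 in controls and 265 ± 28.6 in knockouts. The difference of −0.70 ± 0.60 was not called (limma-trend adjusted p = 0.52), nor did the exact permutation test pass (p = 0.4, and 0.4 adjusted over the 2 tests). It rested on control TAC replicate 3, without which Cdkn1a was called lower at −1.53 (adjusted p = 0.008), and the difference without each library in turn ran from −1.53 to −0.06.

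Of the 13916 genes, 1145 were called between the genotypes after TAC (8.23%), 570 of them higher in knockouts (4.10%) and 575 lower (4.13%). Genes lower in knockouts included the matricellular, collagen and fetal cardiac genes, and genes higher in knockouts included those of mitochondrial respiration. The falls were the larger changes: 182 of the 575 lower genes (31.7%) passed a log2 difference of −1, and 36 of the 570 higher genes (6.32%) passed 1. The median difference was −0.78 among lower and 0.60 among higher genes, beside 0.013 over all genes. Of the 1145 called genes 1069 were annotated as protein coding, and in 1132 the 3 knockout and 3 control values did not overlap, as they did not in 4323 of all genes tested (31.1%). The count rested on single libraries: it was 348 without control TAC replicate 1, 275 without control TAC replicate 2, 214 without knockout TAC replicate 1 and 202 without knockout TAC replicate 2. It was 1945 without knockout TAC replicate 3, the library that stood apart, and 2143 without control sham replicate 3.

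Counts of list members called with all 12 libraries are to be read against 4.10% higher and 4.13% lower over all genes. With the trend removed, those shares were 1.92% and 1.54%. Counts of list members under a fit that left a library out are to be read against the share of all genes called in that fit. Without control TAC replicates 1, 2 and 3 in turn it was 1.11, 0.841 and 3.59% higher and 1.39, 1.14 and 4.2% lower. Without knockout TAC replicates 1, 2 and 3 in turn it was 0.374, 0.417 and 7.5% higher and 1.16, 1.03 and 6.47% lower. Without control sham replicates 1, 2 and 3 in turn it was 5.19, 3.98 and 7.66% higher and 5.3, 4.15 and 7.74% lower. Without knockout sham replicates 1, 2 and 3 in turn it was 3.2, 2.72 and 3.04% higher and 3.33, 3.00 and 3.1% lower.

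**Figure D1:**
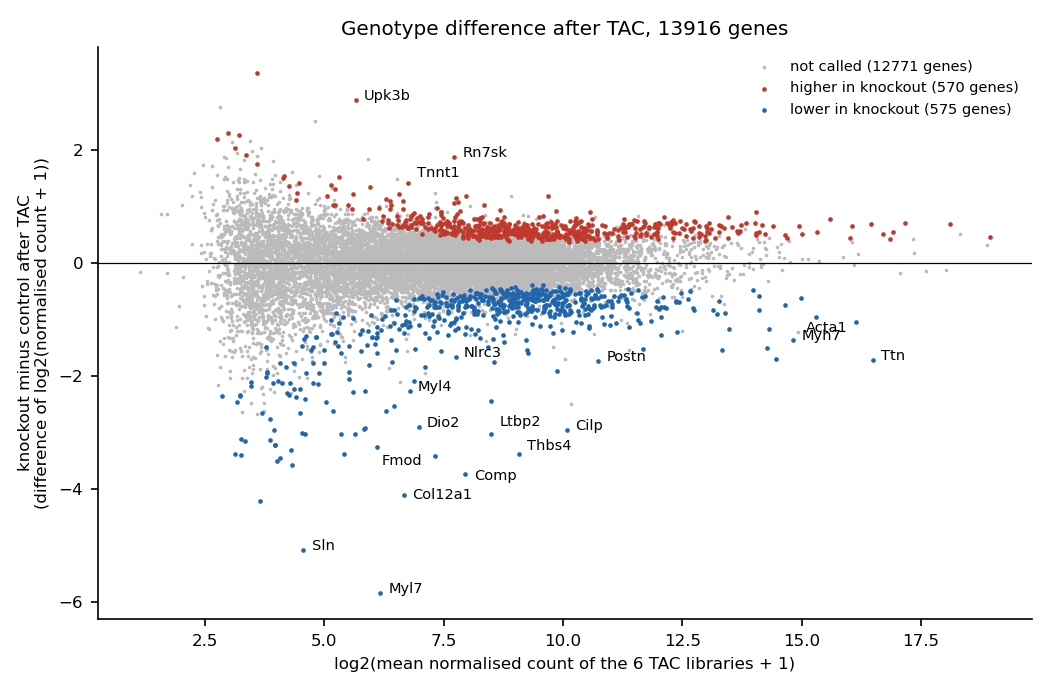
Difference between knockout and control after TAC (vertical axis, log2) against the mean normalised count of the 6 TAC libraries (horizontal axis, log2), one point per gene tested. The 570 called higher genes lie mostly between 0 and 1, while 182 of the 575 called lower genes lie below −1, with Myl7 and Sln lowest.

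The calls followed transcript length. Among 796 genes with a transcript under 1 kb the median difference was 0.40, and 13.7% were called higher and 1.51% lower. Among 794 genes over 8 kb the median was −0.46, and 0.252% were called higher and 26.4% lower. The median transcript was 1736 bases in called higher genes, 6851 in called lower genes and 3352 over all genes. Spearman's rho over genes between the difference and length was −0.473, and 0.0862 for the same difference after sham. With the trend of length and GC content removed, 481 genes were called (3.46%), 267 higher (1.92%) and 214 lower (1.54%), and 386 of them were among the 1145.

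**Figure D2:**
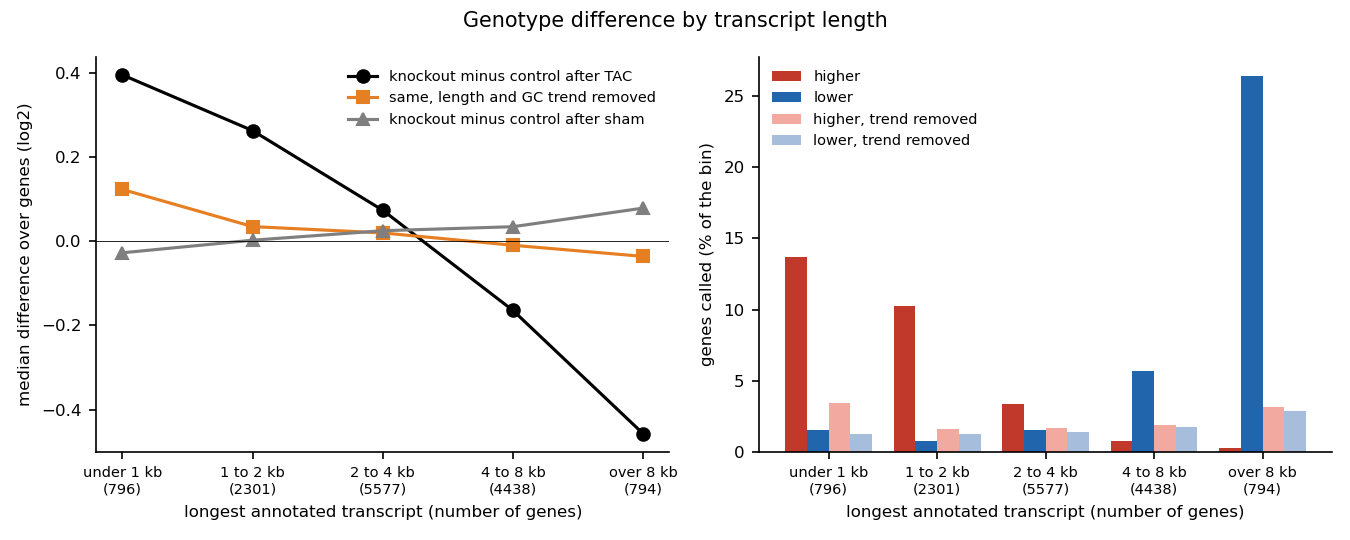
Left, median log2 difference between knockout and control by length of the longest transcript, after TAC, after TAC with the trend removed, and after sham; right, percent of the genes in each bin that were called, with numbers of genes under each bin. The median after TAC runs from 0.40 under 1 kb to −0.46 over 8 kb, and from 0.12 to −0.036 with the trend removed.

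The matrix and matricellular genes were lower in knockouts after TAC. Of 50 tested members of this list, which covers matricellular proteins, proteoglycans, elastic fibre proteins and markers of activated fibroblasts, 24 were called lower and none higher, beside 4.13% lower over all genes. Differences ran from −3.73 to 0.10 with a median of −0.86, and 49 of 50 were below 0. In bulk tissue fewer cells of a type and less RNA per cell cannot be told apart. Thbs4 (ENSMUSG00000021702.7, chr13:92751590-92794818) encodes thrombospondin 4, a matricellular protein that rises in loaded heart muscle. Its values were 779, 1177 and 991 in the control and 121, 91.0 and 70.9 in the knockout libraries. The lowest control value lay above the highest knockout value by a wide margin, and the mean was 10.4-fold higher in controls (difference −3.38 ± 0.22, adjusted p = 3.4e-07). Lack of overlap was itself a condition of the rule that named the lowest called genes, Thbs4 and Comp among them. Comp (ENSMUSG00000031849.9, chr8:70373558-70382066), the related thrombospondin 5 of cartilage and tendon, had values of 376, 546 and 459 in the control and 22.2, 43.3 and 38.2 in the knockout libraries. It was 13.3-fold higher in controls (difference −3.73 ± 0.28, adjusted p = 2.1e-06). After sham the same genes were low in both genotypes: Thbs4 stood at 62.4 ± 2.95 in control and 58.7 ± 13.5 in knockout sham libraries. The knockout TAC libraries thus had Thbs4 at 70.9 to 121, and the sham libraries of both genotypes at 50.7 to 74.3.

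Cilp is a matrix protein of cartilage that activated cardiac fibroblasts also secrete, and had values of 2007, 2241 and 1487 in the control and 286, 358 and 137 in the knockout libraries (difference −2.96 ± 0.28, adjusted p = 9.3e-05). Fmod, the collagen-binding proteoglycan fibromodulin, fell from 268, 355 and 249.9 in controls to 37.7, 32.2 and 14.2 in knockouts (difference −3.42 ± 0.37, adjusted p = 0.00016). Ltbp2, a microfibril protein related to the latent TGF-beta binding proteins, had 528, 819.9 and 573 in the control and 85.0, 119.8 and 43.6 in the knockout libraries (difference −3.02 ± 0.30, adjusted p = 8.1e-05). In each of these genes the 3 knockout values lay below all 3 control values, which the rule that named the lowest called genes required. Periostin (Postn), made by activated fibroblasts, had values of 2376, 2878 and 2546 in the control and 886, 1015 and 529 in the knockout libraries. Its difference was −1.73 ± 0.23 (adjusted p = 0.001), a mean 3.21-fold higher in controls. Angptl7, a secreted angiopoietin-like protein, was lower by the same test (difference −2.94 ± 0.52, adjusted p = 0.0055). Spp1, the gene of osteopontin, was at 34.6, 37.1 and 22.4 in the control and 8.69, 13.3 and 4.36 in the knockout libraries, with no overlap between the groups, but its difference of −1.80 ± 0.58 was not called (adjusted p = 0.061). Spp1 was called by DESeq2, edgeR and voom, with a pseudocount of 5, in the 6 TAC libraries alone and without control sham replicate 3 (adjusted p = 0.032). Ccn2, the connective tissue growth factor, spread from 1773 to 7149.6 in controls and from 869 to 1521 in knockouts (difference −1.54 ± 0.54, adjusted p = 0.11, not called), but was called by DESeq2 and without control TAC replicate 3 (−2.03, adjusted p = 0.022). With the length and GC trend removed, 20 of the 50 members were called lower and none higher. The count of lower members was 13 without control TAC replicate 2, 14 without knockout TAC replicate 1 and 15 without control TAC replicate 1.

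Collagen genes were lower too: 13 of 23 tested were called lower and none higher, and all 23 differences were below 0 (median −0.70, range −4.10 to −0.05). In 19 of the 23 the knockout and control values did not overlap, beside 31.1% of all genes. Col12a1, a fibril-associated collagen of load-bearing tissue, had values of 173, 220.4 and 172 in the control and 5.79, 28.8 and 5.45 in the knockout libraries (difference −4.10 ± 0.52, adjusted p = 0.00054). Knockout TAC replicate 2 was the highest of its group in Col12a1, yet far below every control. The network-forming collagen gene Col8a2 had 66.0, 83.4 and 57.8 in the control and 3.86, 22.2 and 4.36 in the knockout libraries (difference −3.03 ± 0.55, adjusted p = 0.0058), and its partner Col8a1 had 833, 1013 and 850.3 in the control and 349.5, 378 and 221 in the knockout libraries (−1.53 ± 0.22, adjusted p = 0.0011). Col5a2, of the collagen that seeds fibrils, stood at 885, 946 and 838 in the control and 399.8, 461 and 408 in the knockout libraries (difference −1.07 ± 0.13, adjusted p = 0.00041), and Col6a3, of the beaded microfibrils, fell by 1.24 ± 0.15 (adjusted p = 0.00036). Among the main fibrillar collagens, Col1a1 had 1973, 2346 and 1712 in the control and 1049.6, 1154 and 1264 in the knockout libraries (difference −0.79 ± 0.15, adjusted p = 0.0068). Col3a1 had 3644, 4395 and 3620.2 in the control and 2649, 2898 and 2199.8 in the knockout libraries, a difference of −0.59 ± 0.15 (adjusted p = 0.024). The differences of the fibrillar collagens were thus under those of the collagens of types VIII and XII, with sizes that were not tested against each other. Col3a1 was not called without control TAC replicates 1 or 2 or knockout TAC replicates 1, 2 or 3 (adjusted p up to 0.12). Its call also ended with the trend removed (adjusted p = 0.14). The median length of the collagen transcripts was 6450 bases, and with the trend removed 8 of the 23 were called lower and the median was −0.42. The count was 8 without control TAC replicate 2, 8 without knockout TAC replicate 1 and 9 without knockout TAC replicate 2, while it was 10 to 17 without each of the other 9 libraries.

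**Figure D3:**
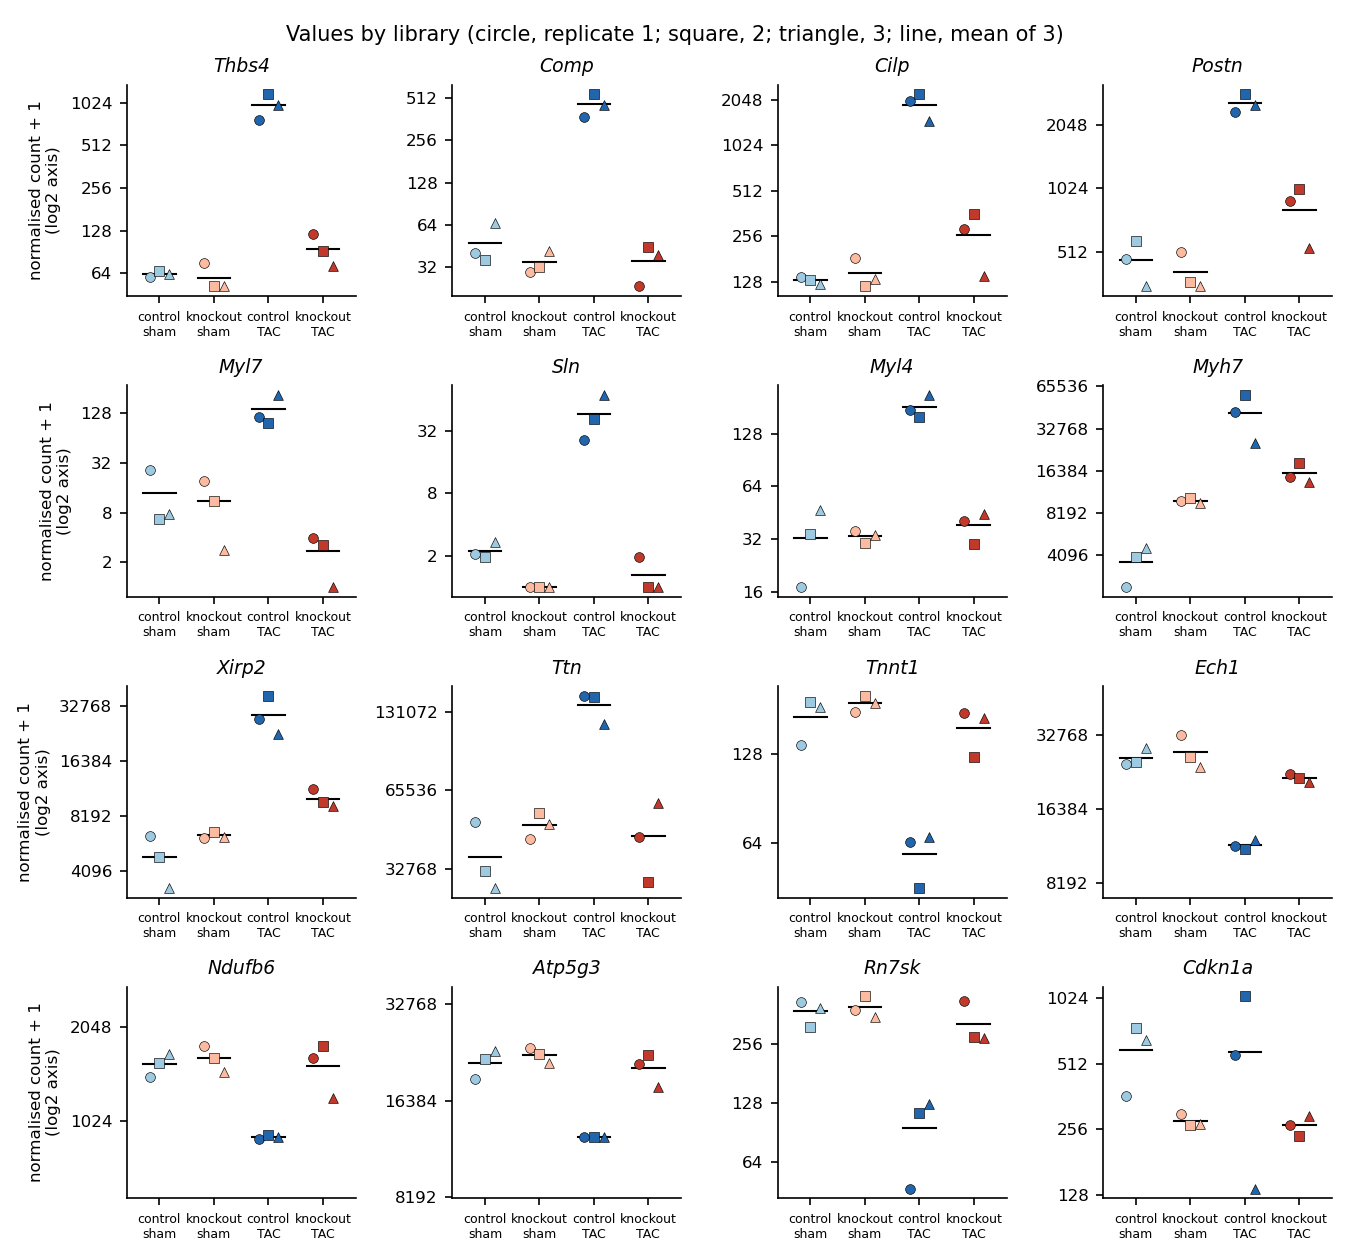
Normalised read count + 1 (log2 axis) of 16 genes in each of the 12 libraries, by genotype and surgery; lines are means of 3. In Thbs4, Comp, Cilp, Postn, Myl7, Sln, Myl4, Myh7, Xirp2 and Ttn all 3 control TAC values lie above all 3 knockout TAC values, in Tnnt1, Ech1, Ndufb6, Atp5g3 and Rn7sk below them, and in Cdkn1a the control values span those of the knockouts. For genes named by the highest or lowest difference, lack of overlap was a condition of the naming rule.

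Enzymes that process and remodel matrix were called in part. Of 27 tested proteases and inhibitors, 6 were called lower and 1 higher (median −0.36). Adamts2, which cleaves the propeptide of fibrillar procollagens, had values of 508, 506 and 502 in the control and 278, 281 and 306 in the knockout libraries (difference −0.81 ± 0.12, adjusted p = 0.0017). Mmp2, a gelatinase, fell by 0.68 ± 0.15 (adjusted p = 0.012), and Timp1, an inhibitor of metalloproteases, by 1.43 ± 0.41 (adjusted p = 0.043). The member that was called higher was Mmp15, a membrane-bound metalloprotease (0.55 ± 0.13, adjusted p = 0.02). Of these genes Adamts2 stayed called without each library in turn, and the list held 1 lower call without control TAC replicate 2 or knockout TAC replicate 1 and 2 without control TAC replicate 1 or knockout TAC replicate 2. Mmp2 was not called without control TAC replicate 2 or knockout TAC replicate 1 (adjusted p up to 0.072), and Timp1 missed the threshold without control TAC replicates 1, 2 or 3, knockout TAC replicates 1, 2 or 3 or knockout sham replicates 1, 2 or 3 (adjusted p up to 0.18). Mmp15 lost its call without control TAC replicates 2 or 3 or knockout TAC replicate 1 (adjusted p up to 0.097). With the trend removed 4 members were called lower and 2 higher.

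Among 29 tested genes of TGF-beta and BMP signalling 5 were called lower and none higher (median −0.29), beside 4.13% lower over all genes. The ligand gene Tgfb2 had values of 274, 385 and 378 in the control and 130.4, 161 and 141 in the knockout libraries, a difference of −1.25 ± 0.17 (adjusted p = 0.001), and no library decided its call. The others were Inhba, the activin A subunit (−1.47 ± 0.40, adjusted p = 0.034), the receptors Bmpr2 (−0.57 ± 0.16, 0.035) and Tgfbr2 (−0.38 ± 0.11, 0.042), and the secreted follistatin-like Fstl1 (−0.59 ± 0.17, 0.037). None of these 4 was called when the trend was removed, nor without control TAC replicate 1, control TAC replicate 2 or knockout TAC replicate 1 (adjusted p up to 0.16). The whole list held 2 calls with the trend removed, 1 without each of those 3 libraries, and 2 or 3 without each of the other 5 knockout libraries.

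Several fetal and hypertrophy genes were lower in knockouts, while the natriuretic peptides were not called. Of 33 tested members of this list 12 were called lower and 2 higher, with a median of −0.77 and values that did not overlap in 22, beside 4.13% lower, 4.10% higher and 31.1% not overlapping over all genes. Myl7 (ENSMUSG00000020469.8, chr11:5896637-5898782), the atrial regulatory myosin light chain, had values of 115, 95.8 and 212 in the control and 2.90, 2.22 and 0 in the knockout libraries, the most negative difference of all called genes (−5.84 ± 0.72, adjusted p = 0.00054). The knockout libraries held 2.90, 2.22 and 0, below the sham libraries of both genotypes in the mean (12.7 ± 11.2 in control and 10.1 ± 8.25 in knockout). With values this low, the size of the Myl7 difference depends on the pseudocount of 1. Myl4, the atrial essential light chain that the fetal ventricle also makes, had 174, 159 and 213 in the control and 39.6, 28.8 and 43.6 in the knockout libraries (difference −2.26 ± 0.31, adjusted p = 0.001). After sham, Myl4 was at 31.7 ± 15.0 in control and 32.1 ± 2.73 in knockout. Myh7, the slow beta-myosin heavy chain of the fetal and the overloaded mouse ventricle, had 43077, 56882 and 26011 in the control and 14850.0, 18721 and 13567 in the knockout libraries, a difference of −1.36 ± 0.26 (adjusted p = 0.009). Its call ended with the trend removed (−1.12, adjusted p = 0.055). The alpha-myosin heavy chain Myh6, which the adult mouse ventricle uses, was at 273947 ± 22018 in controls and 257891 ± 69354 in knockouts and was not called (adjusted p = 0.69).

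Xirp2, an actin-binding protein of the intercalated disc, had values of 27634, 37256 and 22848 in the control and 11497, 9801 and 9309.6 in the knockout libraries (difference −1.50 ± 0.21, adjusted p = 0.0011). Ankrd1, a stretch-responsive titin partner, had 47558, 65538 and 47204 in the control and 30110.3, 31786 and 20914 in the knockout libraries (difference −0.96 ± 0.19, adjusted p = 0.0087). Ankrd1 was not called without control TAC replicate 2 (adjusted p = 0.051). In both genes all knockout values lay under all control values. Acta1, the skeletal muscle actin of the fetal heart, had 49822, 40026 and 36536 in the control and 24979, 24992 and 9170.0 in the knockout libraries, which also did not overlap, but was not called (difference −1.22 ± 0.37, adjusted p = 0.063). Acta1 was called by DESeq2, with a filter at 50, with a replicate block and without control sham replicate 2 (adjusted p = 0.033). The natriuretic peptide genes Nppa and Nppb are the usual markers of wall stress. Nppa was at 2286, 5749 and 2651 in the control and 1848, 1779 and 1182 in the knockout libraries (difference −1.05 ± 0.42, adjusted p = 0.14, but 0.042 without control sham replicate 1), and control replicate 2 lay far above the other two. Nppb was at 5021, 11452 and 4536 in the control and 7633, 9318 and 3313 in the knockout libraries, the groups overlapped throughout, and the difference was −0.05 ± 0.49 (adjusted p = 0.97). Rcan1, a target of calcineurin signalling, ran from 2287 to 7786 in controls and from 1801 to 2716 in knockouts (difference −0.91 ± 0.32, adjusted p = 0.099, not called), but was called by DESeq2 and without control TAC replicate 3 (−1.37, adjusted p = 0.0025). Control TAC replicate 2 held the highest value of the 6 libraries in Nppa, Nppb, Myh7, Ankrd1, Xirp2 and Rcan1. After removal of the trend 8 members were called lower and 1 higher, and the lower count was 8 without control TAC replicate 2 and 9 to 13 without each of the others, and the higher count 1 to 4.

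The called exceptions in direction were Hopx, a homeodomain cofactor (0.66 ± 0.14, adjusted p = 0.012), and Tnnt1 (ENSMUSG00000064179.13, chr7:4504570-4516382), the slow skeletal troponin T that also belongs to the list as a gene of the embryonic heart. Its values were 63.8, 44.3 and 66.2 in the control and 176, 124 and 169 in the knockout libraries, so the control libraries were the low ones (1.42 ± 0.20, adjusted p = 0.0011, a mean 2.69-fold higher in knockouts). Hopx was not called without control TAC replicate 2 or knockout TAC replicates 1 or 2 (adjusted p up to 0.088). Hopx was also not called with the trend removed (adjusted p = 0.055). After sham Tnnt1 stood at 170.1 ± 29.5 in control and 189 ± 11.9 in knockout. The knockout effect on Tnnt1 was not shown to differ between TAC and sham (limma-trend adjusted p = 0.066).

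Promoter windows of 4 of the genes with changes of this size are printed because they show which short elements stand near the start of genes that moved in either direction. These 4 were chosen after their values were seen, come from RefSeq on GRCm38.p6 and give the 250 bases before RefSeq's start on the gene's strand, with the start at 0. Of 13913 tested symbols 10447 had a window. Capitals mark matches to M-CAT (CATTCC, bound by TEAD factors), the CArG box (bound by serum response factor) and the TATA box (TATAAA).
Thbs4: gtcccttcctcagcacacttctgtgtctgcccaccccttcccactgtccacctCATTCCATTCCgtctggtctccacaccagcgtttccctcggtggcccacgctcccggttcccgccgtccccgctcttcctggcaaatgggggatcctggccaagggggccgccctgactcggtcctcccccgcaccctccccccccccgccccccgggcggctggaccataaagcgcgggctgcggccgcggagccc
Myl7: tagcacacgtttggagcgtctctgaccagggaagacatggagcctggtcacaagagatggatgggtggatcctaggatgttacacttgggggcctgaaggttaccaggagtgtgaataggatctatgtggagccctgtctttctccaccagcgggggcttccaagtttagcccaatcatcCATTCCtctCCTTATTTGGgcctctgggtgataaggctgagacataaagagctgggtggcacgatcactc
Tnnt1: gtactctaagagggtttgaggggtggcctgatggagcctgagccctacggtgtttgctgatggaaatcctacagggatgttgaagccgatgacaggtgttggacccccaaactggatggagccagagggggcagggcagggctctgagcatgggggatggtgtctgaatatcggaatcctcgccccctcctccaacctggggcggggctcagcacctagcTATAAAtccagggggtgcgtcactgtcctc
Dio2: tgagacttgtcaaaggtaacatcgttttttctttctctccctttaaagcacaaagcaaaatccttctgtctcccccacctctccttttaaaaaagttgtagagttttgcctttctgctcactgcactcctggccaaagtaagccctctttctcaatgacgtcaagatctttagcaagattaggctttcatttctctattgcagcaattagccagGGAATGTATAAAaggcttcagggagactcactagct
Thbs4 (chr13:92794819-92795068, minus strand) held M-CAT letters at −197 and −192, which overlap by a base, and Myl7 (chr11:5898783-5899032, minus strand) held M-CAT at −70 beside a CArG box at −61. Tnnt1 (chr7:4515976-4516225, minus strand) held a TATA box at −30, and Dio2 (chr12:90739039-90739288, minus strand), the gene of a thyroid hormone deiodinase, held a TATA box at −30 and M-CAT on the other strand at −36. RefSeq's start of Dio2 lies outside, and that of Tnnt1 inside, the gene as GENCODE M21 draws it.

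Windows of 300 bases that run 50 bases further were read too, TATAAA on the gene's strand and the other elements on both strands. Shares are of genes with a window: 10447 of those tested, 437 called higher and 415 called lower. A gene counted where any of its windows held the element. A CArG box stood in 6 of 29 genes of the hypertrophy and fetal list (20.7%) and in 1.57% of all genes tested. TATAAA stood in 24.1% of that list and in 24.1% of 29 matrix genes, against 5.60% of all genes tested. M-CAT stood in 16.2% of called higher, 17.6% of called lower and 14.7% of all genes tested. The ETS letters CCGGAAG stood in 19.2% of called higher, 10.4% of called lower and 19.0% of all genes tested, and the NRF-1 element in 8.47% of 59 oxidative phosphorylation genes against 3.07% of all. Among all 32851 windows of the RefSeq table the shares were 1.63% for the CArG box, 8.32% for TATAAA, 14.7% for M-CAT, 8.86% for ETS and 1.27% for NRF-1. These last shares count single windows, not genes, and so differ in unit from those above. These are counts of letters in windows, and no test was made of them.

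Sarcomere and Z-disc genes moved in both directions, 6 of 32 up and 4 down (median −0.08), and the direction followed transcript length. The 6 called higher had a median transcript of 1019 bases and the 4 called lower of 15272. Ttn, the giant spring protein titin, had values of 151091, 149887 and 117843 in the control and 43565, 29288 and 58798 in the knockout libraries (difference −1.72 ± 0.24, adjusted p = 0.0012). Its difference was −0.53 with the trend removed (adjusted p = 0.049). Cardiac troponin I, Tnni3, had 33917, 36693 and 37639 in the control and 64258, 65156 and 56573 in the knockout libraries (difference 0.78 ± 0.14, adjusted p = 0.0048), and alpha-tropomyosin, Tpm1, rose by 0.55 ± 0.11 (adjusted p = 0.0089). Tpm1 was not called without knockout TAC replicates 1 or 2 (adjusted p up to 0.054). Removing the trend left 5 members called higher and 1 lower, and without knockout TAC replicate 1 or replicate 2 the counts were 1 higher and 1 lower. They were 3 higher and 2 lower without control TAC replicate 1, 4 and 1 without control TAC replicate 2, 6 and 7 without control sham replicate 1 and 6 and 8 without control sham replicate 3.

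Of 27 genes of calcium handling 2 were called higher and 4 lower (median −0.07), beside 4.10% and 4.13% over all genes. Sln (ENSMUSG00000042045.6, chr9:53850164-53854560), sarcolipin, the small inhibitor of the calcium pump that marks atrial muscle, had values of 24.9, 40.2 and 69.9 in the control and 0.966, 0 and 0 in the knockout libraries. All 3 control libraries held it and the knockouts held a single read, so the difference of −5.08 ± 0.68 (adjusted p = 0.00093) depends on the pseudocount of 1 and is no bound on the fold. Phospholamban, Pln, the pump's inhibitor in the ventricle, went the other way, at 9598, 10766 and 10773 in the control and 15320.2, 15325 and 15312 in the knockout libraries (0.56 ± 0.14, adjusted p = 0.023). Hrc, a calcium-binding protein of the sarcoplasmic reticulum, rose by 0.55 ± 0.12 (adjusted p = 0.012). The pump itself, Atp2a2, was at 143792 ± 5654 in controls and 128009 ± 5539 in knockouts and was not called (adjusted p = 0.66). Ryr2, the calcium release channel, fell by 1.17 ± 0.23 (adjusted p = 0.009), and Cacna1c, the L-type channel, by 0.77 ± 0.16 (0.0098). When the trend was removed Ryr2 was at −0.47, Cacna1c at −0.17 and Hrc at 0.42, with none of the 3 called, and Sln and Pln were the list's 2 calls. Ryr2 was not called without knockout TAC replicate 2 (adjusted p = 0.057), and Cacna1c missed the threshold without knockout TAC replicates 1 or 2 (adjusted p up to 0.067). Hrc lost its call without control TAC replicates 1 or 2 or knockout TAC replicate 1 (adjusted p up to 0.062), and Pln was not called without control TAC replicates 1 or 2 or knockout TAC replicates 1 or 2 (adjusted p up to 0.11). The list held 0 to 3 higher and 1 to 6 lower calls without each library in turn, fewest higher without control TAC replicate 2 or knockout TAC replicate 1 and fewest lower without knockout TAC replicate 2.

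Nuclear genes of oxidative phosphorylation were higher in knockouts, in all 5 complexes. Of 71 tested, 58 were called higher and none lower (median 0.64), beside 4.10% higher over all genes. In 68 the groups did not overlap, beside 31.1% of all genes. The calls numbered 31 of 35 in complex I, 2 of 4 in complex II, 6 of 8 in complex III, 10 of 11 in complex IV and 8 of 12 in complex V, the ATP synthase, and the remaining call was Cycs, cytochrome c, the electron carrier between complexes III and IV. Ndufb6, an accessory subunit of complex I, had values of 894, 919 and 906 in the control and 1634, 1775 and 1212 in the knockout libraries (difference 0.75 ± 0.14, adjusted p = 0.0075). Atp5g3, which encodes the rotating c ring of ATP synthase, had 12575, 12637 and 12603 in the control and 21345, 22825 and 18131 in the knockout libraries (difference 0.71 ± 0.13, adjusted p = 0.0048). The control libraries were close to each other in both genes, and knockout replicate 3 was the lowest knockout. Atp5o, of the stalk of ATP synthase, rose by 0.76 ± 0.14 (adjusted p = 0.0065), and Cyc1, the cytochrome c1 of complex III, by 0.63 ± 0.12 (0.0076). The median transcript of this list was 1005 bases, within the length range where most genes were higher. Of all genes with a transcript of 1 to 2 kb 10.3% were called higher, and of those under 1 kb 13.7%. The trend removed, 29 of the 71 were called higher, beside 1.92% of all genes, and the median was 0.41, and Cyc1 was then not called (adjusted p = 0.055). The count rested on single libraries: 2 were called without knockout TAC replicate 2, 3 without knockout TAC replicate 1, 12 without control TAC replicate 1 and 14 without control TAC replicate 2, against 48 to 65 without each of the other 8. Ndufb6 was not called without knockout TAC replicates 1 or 2 (adjusted p up to 0.052), and Cyc1 missed the threshold without knockout TAC replicate 2 (adjusted p = 0.052).

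The mitochondrially encoded genes, transcribed from the organelle's own DNA, had 2 of 7 called higher, mt-Nd4 and mt-Cytb. mt-Nd4, a complex I subunit, had values of 207858, 214172 and 226018 in the control and 323928, 346807 and 382361 in the knockout libraries (difference 0.70 ± 0.13, adjusted p = 0.0061). mt-Cytb, of complex III, rose by 0.46 ± 0.14 (adjusted p = 0.049), a call that ended with the trend removed and with a replicate block. mt-Cytb was not called without control TAC replicates 1, 2 or 3, control sham replicate 2, knockout TAC replicates 1, 2 or 3 or knockout sham replicates 1, 2 or 3 (adjusted p up to 0.17). The list held 5 calls without control sham replicate 3.

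Genes of fatty acid uptake and oxidation, the main fuel pathway of the adult heart, had 11 of 40 called higher and 2 lower (median 0.31). The shares over all genes were 4.10% higher and 4.13% lower. Ech1, an enoyl-CoA isomerase of mitochondrial beta-oxidation, had values of 11532, 11277 and 12212 in the control and 22757, 21908 and 21133 in the knockout libraries (difference 0.91 ± 0.13, adjusted p = 0.0011, a mean 1.88-fold higher in knockouts). Acaa2, the thiolase that ends each round of beta-oxidation, had 8989.9, 7007 and 8477 in the control and 14384, 14181 and 14198 in the knockout libraries (difference 0.81 ± 0.12, adjusted p = 0.0016), and Eci1, which isomerises unsaturated fatty acids, rose by 0.75 ± 0.12 (0.002). All 3 enzymes stayed called without each library in turn and with the trend removed. Cpt1b, which admits fatty acids to the mitochondrion, was at 405 ± 45.5 in controls and 465 ± 95.1 in knockouts and was not called (adjusted p = 0.5). Both called lower members were coactivators of mitochondrial gene expression rather than enzymes. Ppargc1b (PGC-1 beta) had 413, 444 and 447 in the control and 176, 166 and 179 in the knockout libraries (difference −1.32 ± 0.18, adjusted p = 0.001), and its 3 knockout values lay close together. Ppargc1a (PGC-1 alpha) had 1671, 2988 and 1546 in the control and 979, 633 and 1124 in the knockout libraries (difference −1.16 ± 0.26, adjusted p = 0.019). Ppargc1a was not called without control TAC replicate 2 or knockout TAC replicates 1 or 2 (adjusted p up to 0.099). Ppargc1a was also not called with the trend removed or in the 6 TAC libraries alone. Of the list, 7 members were called higher and 1 lower when the trend was removed, and the higher count was 3 without either knockout TAC replicate 1 or 2, 4 without control TAC replicate 2, 6 without control TAC replicate 1, 7 without knockout sham replicate 2 or 3 and 21 without control sham replicate 3.

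In the citric acid cycle and pyruvate entry 8 of 28 genes were called higher and none lower (median 0.25), beside 4.10% higher over all genes. Suclg1, a subunit of succinate-CoA ligase, had values of 3559, 3619 and 4100.3 in the control and 6198, 6567 and 5632 in the knockout libraries (difference 0.71 ± 0.12, adjusted p = 0.0048). Fumarase, Fh1, rose by 0.56 ± 0.11 (adjusted p = 0.0096), malate dehydrogenase, Mdh2, by 0.54 ± 0.11 (0.0098), and Pdk2, a kinase that restrains pyruvate dehydrogenase, by 0.54 ± 0.11 (0.0094). Its relative Pdk4 was at 3832 ± 907 in controls and 2329.6 ± 577 in knockouts and was not called (adjusted p = 0.11), except by DESeq2. Mdh2 and Pdk2 were not called with the trend removed, when 3 members of the list were called. Fh1 was not called without knockout TAC replicates 1 or 2 (adjusted p up to 0.058), and Mdh2 missed the threshold without knockout TAC replicate 1 (adjusted p = 0.057). Pdk2 lost its call without control TAC replicate 2 or knockout TAC replicate 1 (adjusted p up to 0.055). The count was 1 without knockout TAC replicate 1, 3 without knockout TAC replicate 2, 4 without control TAC replicate 1 or 2, 5 without control TAC replicate 3 and 13 without control sham replicate 3. Of 26 genes of glucose uptake and glycolysis 4 were called higher and none lower (median 0.16), beside 4.10% higher over all genes. Eno3, the muscle enolase, had 10955, 10759 and 11348 in the control and 17388, 19753 and 17029 in the knockout libraries (difference 0.71 ± 0.12, adjusted p = 0.0031). Pgam2 (0.72 ± 0.14, adjusted p = 0.0089), Ldhb (0.58 ± 0.11, 0.0089) and Aldoa (0.50 ± 0.12, 0.019) were the other 3, enzymes of the lower pathway, of lactate use and of the aldolase step. Pgam2 and Ldhb were not called without knockout TAC replicates 1 or 2 (adjusted p up to 0.064 and 0.057, in that order), and Aldoa missed the threshold without control TAC replicates 1 or 2 or knockout TAC replicates 1 or 2 (adjusted p up to 0.1). Ldhb and Aldoa were not called with the trend removed. The count was 1 without knockout TAC replicate 1 or 2 and 8 without control sham replicate 3.

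**Figure D4:**
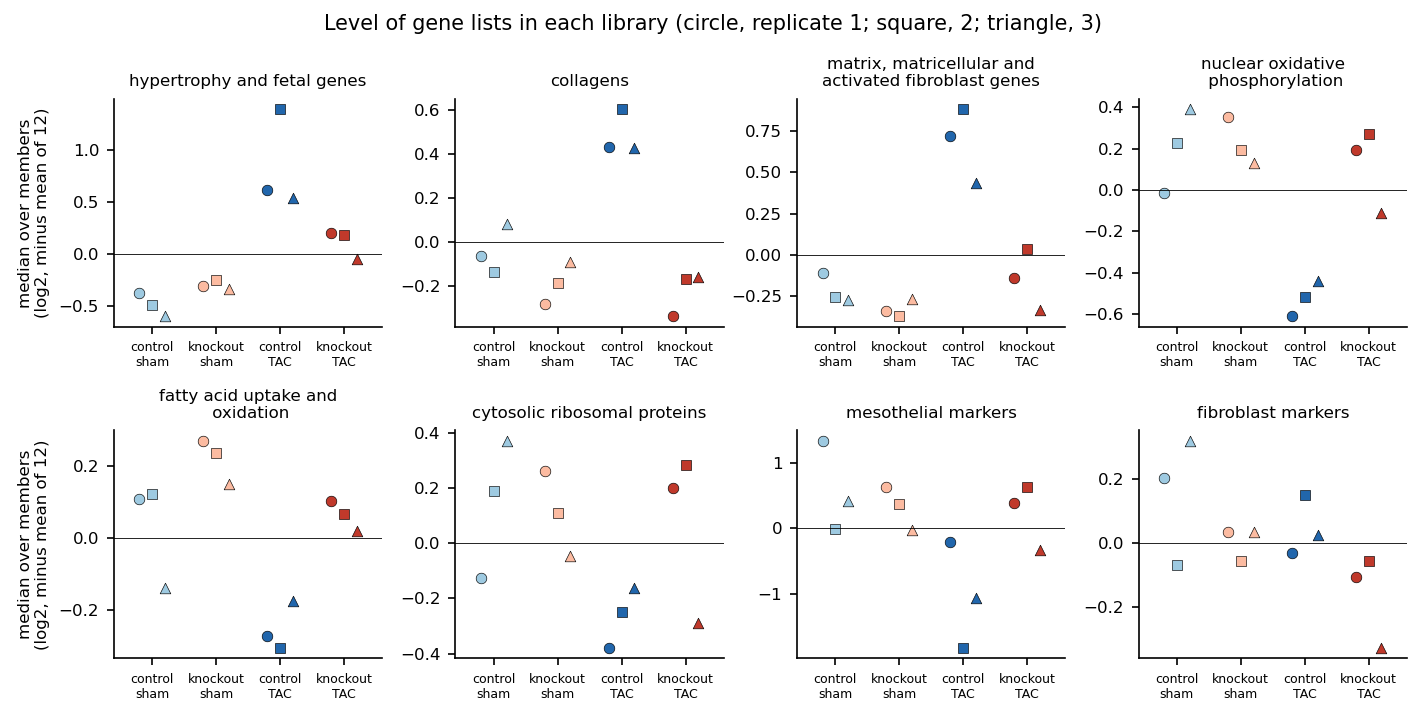
Median over the tested members of 8 gene lists in each of the 12 libraries, as log2 value minus the gene's mean over the 12 libraries. The matrix list stands at 0.43 to 0.88 in the control TAC and at −0.33 to 0.04 in the knockout TAC libraries, and the oxidative phosphorylation list at −0.61 to −0.44 and at −0.11 to 0.27.

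Among 43 growth factors, secreted peptides and hormone-handling genes 6 were called lower and 3 higher (median 0.08), beside 4.13% and 4.10% over all genes. Dio2 (ENSMUSG00000007682.6, chr12:90724552-90738438), the deiodinase that makes active thyroid hormone inside the cell, had values of 258, 204 and 198 in the control and 28, 45.5 and 17.4 in the knockout libraries (difference −2.91 ± 0.38, adjusted p = 0.00069). After sham it stood at 9.89 ± 3.26 in control and 12.5 ± 5.98 in knockout. Dkk3, a secreted protein of the Dickkopf family and an atrial marker, had 255, 168 and 144 in the control and 57.9, 57.7 and 22.9 in the knockout libraries (difference −2.08 ± 0.33, adjusted p = 0.0025). Ace, the angiotensin-converting enzyme, fell by 0.76 ± 0.13 (adjusted p = 0.0048). Vegfb, an endothelial growth factor of oxidative muscle, had 2513, 2518 and 2416 in the control and 3776, 3770.0 and 3792 in the knockout libraries (difference 0.61 ± 0.11, adjusted p = 0.0071), and was not called with the trend removed (adjusted p = 0.13). None of these 4 calls was lost without any single library. The list's lower count was 3 without control TAC replicate 1, knockout TAC replicate 1 or knockout TAC replicate 2, and its higher count was 1 without knockout TAC replicate 2, 7 without control sham replicate 3 and 1 with the trend removed. Gdf15, a stress-induced cytokine, ran from 35.4 to 339 in controls and from 37.1 to 42.1 in knockouts and was not called (difference −1.56 ± 0.68, adjusted p = 0.17), but was called without control TAC replicate 3 (−2.41, adjusted p = 0.017). Angpt2, a destabilising ligand of the endothelial Tie2 receptor, was higher in knockouts at 35.7, 61.8 and 47.5 in the control and 107, 87.6 and 123 in the knockout libraries (1.14 ± 0.25, adjusted p = 0.012). Angpt2 was not called without control TAC replicate 1 or knockout TAC replicate 1 (adjusted p up to 0.066).

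Of the lists tied to p53, stress and inflammation, all but the oxidative stress response held few calls. None of 37 tested p53 targets was called in either direction by limma-trend or edgeR (median −0.14), where DESeq2 called 1, voom called 5 and 5 had an unadjusted p under 0.05. Limma-trend called 3 lower without control TAC replicate 3, 2 lower without knockout TAC replicate 3, 1 higher without control sham replicate 1, and 1 in each direction without control sham replicate 3. Dcxr was at 0.61 ± 0.20 (adjusted p = 0.069) and Zmat3, an RNA-binding p53 target, at −0.56 ± 0.19 (0.074). Both were called by voom and without control sham replicate 3, Dcxr also by DESeq2, in the 6 TAC libraries alone and without control sham replicate 1, and Zmat3 also without control TAC replicate 3 or knockout TAC replicate 3. Limma-trend called none of 26 genes of the integrated stress and unfolded protein responses (4 at an unadjusted p under 0.05, 0 by DESeq2 or edgeR, 4 by voom, and 1 lower without control TAC replicate 3). Of 24 immediate early genes it called none (2 at an unadjusted p under 0.05, 3 by DESeq2, 1 by edgeR, 1 by voom), with a median of −0.46, and 6 lower without control TAC replicate 3, beside 1 lower without control sham replicate 1 or 3. Among 33 inflammatory mediators 2 were called lower (median −0.28), beside 4.13% of all genes. Nlrc3, a negative regulator of innate immune signalling, had 257, 411 and 315 in the control and 116, 83.2 and 106 in the knockout libraries (difference −1.67 ± 0.23, adjusted p = 0.0011), and Osmr, the receptor of oncostatin M, had 563, 509.9 and 446 in the control and 273, 204 and 346 in the knockout libraries (−0.91 ± 0.17, adjusted p = 0.0074). Both stayed called without each library in turn and with the trend removed. Of 45 interferon response genes 2 were called higher, a share near the 4.10% of all genes, the immunoproteasome subunit Psmb8 (0.98 ± 0.22, adjusted p = 0.014) and the guanylate-binding Gbp3 (0.90 ± 0.23, 0.025). Psmb8 and Gbp3 were not called without control TAC replicates 1 or 2 or knockout TAC replicates 1 or 2 (adjusted p up to 0.093 and 0.14, in that order). The list held 9 higher calls without knockout TAC replicate 3 and 4 without control sham replicate 1. Among 25 genes of the oxidative stress response 5 were called higher (median 0.22), beside 4.10% of all genes. They included the peroxiredoxin Prdx5 (0.71 ± 0.14, adjusted p = 0.0077) and the superoxide dismutase Sod1 (0.63 ± 0.13, 0.011). Prdx5 was not called without knockout TAC replicate 2 (adjusted p = 0.055), and Sod1 missed the threshold without control TAC replicate 2 or knockout TAC replicates 1 or 2 (adjusted p up to 0.065). Without knockout TAC replicate 2 none of this list was called, and 1 or 2 were without knockout TAC replicate 1, control TAC replicate 1 or control TAC replicate 2, 8 without control sham replicate 3 and 9 without knockout TAC replicate 3. With the trend removed 3 were called higher and 1 lower, and the median was −0.02.

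Among genes of protein synthesis and turnover, few of the cytosolic ribosome passed the test. Cytosolic ribosomal protein genes had a median of 0.36 with 59 of 70 above 0, beside 51.3% of all genes, and 2 were called higher, Rpl23 (0.55 ± 0.15, adjusted p = 0.029) and Rps2 (0.51 ± 0.14, 0.034). The count was 30 without knockout TAC replicate 3, 7 without control sham replicate 1, 9 without control sham replicate 3 and 0 without control TAC replicate 1, control TAC replicate 2, knockout TAC replicate 1 or knockout TAC replicate 2. Proteasome subunits had 5 of 31 called higher (median 0.30), beside 4.10% of all genes, led by the catalytic Psmb6 (0.62 ± 0.14, adjusted p = 0.016). The count was 14 without knockout TAC replicate 3. None was called without control TAC replicate 1, control TAC replicate 2 or knockout TAC replicate 2, 1 was without control TAC replicate 3 or knockout TAC replicate 1, 2 or 3 were without knockout sham replicate 2 or 3, and 8 were without control sham replicate 3. No member of either list was called with the trend removed. Single calls stood in 5 other lists: Kcnk3 of 27 channels (0.44 ± 0.12, adjusted p = 0.034), Cdk4 of 37 cell cycle genes (0.39 ± 0.12, 0.047), Map1lc3a of 18 atrophy genes (0.67 ± 0.14, 0.011), Hspb3 of 26 heat shock genes (0.72 ± 0.19, 0.031) and Rora of 19 clock genes (−0.67 ± 0.19, 0.038). In the list of 26 calcineurin, NFAT and MEF2 genes Hdac4 (−0.63 ± 0.15, adjusted p = 0.017) and Nfat5 (−0.84 ± 0.23, 0.039) were called lower. None of these single genes was called with the trend removed, and each lost its call without control TAC replicate 1, knockout TAC replicate 1 or knockout TAC replicate 2, and in 3 (Map1lc3a) to 9 (Kcnk3 and Cdk4) of the 12 fits in all (adjusted p up to 0.19). For lists with 1 call the share lay near that over all genes (4.10% higher, 4.13% lower). Without control TAC replicate 3 the heat shock list held 6 lower and no higher calls, and without knockout TAC replicate 3 it held 3 higher and 1 lower. Across the fits without 1 library the other 5 of these lists held 0 to 2 higher and 0 to 3 lower calls.

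**Figure D5:**
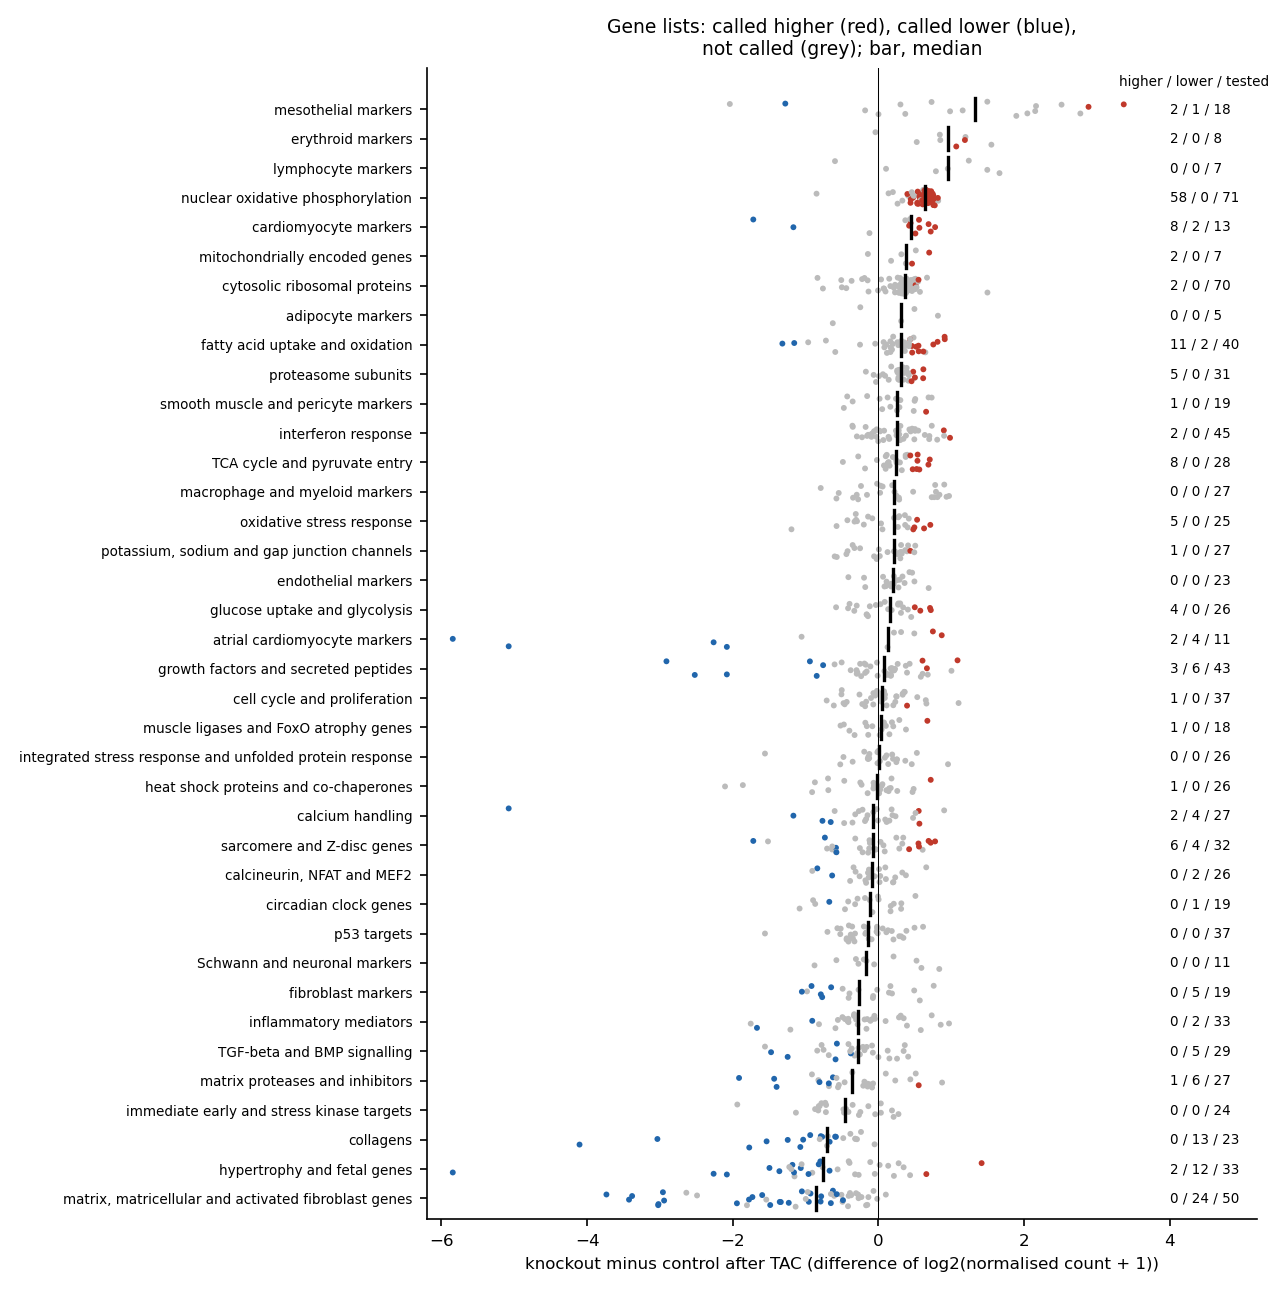
Log2 difference between knockout and control after TAC for each tested member of 38 gene lists, ordered by the list's median (bar), with the numbers called higher, called lower and tested at the right. The matrix (median −0.86), hypertrophy (−0.77) and collagen (−0.70) lists stand lowest, and the mesothelial (1.33), erythroid (0.96), lymphocyte (0.95) and oxidative phosphorylation (0.64) lists highest.

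Markers of the cell types in the apex were set beside these changes. The tissue label was checked against 13 cardiomyocyte markers, which summed to 1026955 to 1092240 normalised counts in the control TAC and 1200319 to 1294958 in the knockout TAC libraries. Of these 13, 8 were called higher and 2, Ttn and Ryr2, lower, beside 4.10% and 4.13% over all genes, and none lacked reads. With the trend removed 5 were called higher and 1 lower. The higher count was 1 without knockout TAC replicate 1 or 2, 2 without control TAC replicate 1, 3 without control TAC replicate 2 and 5 without control TAC replicate 3. Of 11 tested atrial markers 4 were called lower, Myl7, Sln, Myl4 and Dkk3, and 2 higher, Stard10 (0.87 ± 0.16, adjusted p = 0.0055) and the transcription factor Tbx5 (0.75 ± 0.19, 0.027). The summed level of the 14 atrial markers was 4211 to 7505 in the control TAC, 3067 to 3603 in the knockout TAC and 2667 to 3155 in the sham libraries, and none of them lacked reads in the TAC libraries. Tbx5 was not called without control TAC replicates 1 or 2 or knockout TAC replicates 1 or 2 (adjusted p up to 0.13). The part of atrial tissue in the fall of Myl7, Sln and Myl4 was not tested.

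Fibroblast markers had 5 of 19 called lower and none higher (median −0.27), beside 4.13% lower over all genes. The list was mixed, with differences from −1.05 to 0.76, 13 below 0 and 6 above. Without control TAC replicate 1, 4 were called lower and 1 higher. The 5 lower calls stood beside the fall of the matrix and collagen lists. Pdgfra, the receptor that defines resident cardiac fibroblasts, had values of 745, 708 and 699 in the control and 339, 407 and 395 in the knockout libraries (difference −0.92 ± 0.13, adjusted p = 0.0012). Col1a2 fell by 0.77 ± 0.12 (adjusted p = 0.0018), the microfibril gene Mfap5 by 1.05 ± 0.23 (0.014) and Pi16 by 0.65 ± 0.15 (0.019). Col1a1 was the other, so that 2 of the 5 are collagens. Mfap5 was not called without control TAC replicate 2 or knockout TAC replicate 1 (adjusted p up to 0.067), and Pi16 missed the threshold without control TAC replicates 1 or 2 or knockout TAC replicate 1 (adjusted p up to 0.091). The 19 markers summed to 32468 to 33879 in the control and 25184 to 32288 in the knockout TAC libraries, and 5 were called lower with the trend removed, but 3 without control TAC replicate 2 or knockout TAC replicate 1. The part of fibroblast number in the fall of the matrix genes was not tested.

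Mesothelial markers, of the cell layer that covers the heart, had the highest median of the lists, 1.33 over 18 tested genes. Their differences ran from −2.04 to 3.37, with 15 above 0 and 3 below. Called higher were Muc16, a surface mucin (6.49, 0 and 0 in the control and 20.3, 26.6 and 13.1 in the knockout libraries, difference 3.37 ± 0.77, adjusted p = 0.017), and Upk3b, a uroplakin (21.6, 6.18 and 5.59 in the control and 88.8, 142 and 32.7 in the knockout libraries, 2.89 ± 0.63, adjusted p = 0.019). Prg4, lubricin, was called lower (−1.28 ± 0.23, adjusted p = 0.0052), which is the opposite direction. For Upk3b the control TAC libraries were the low ones: in sham libraries it stood at 135 ± 68.1 in control and 107 ± 40.0 in knockout. The knockout effect on Upk3b was not shown to differ between TAC and sham (limma-trend adjusted p = 0.13). The list's summed level was 2174 to 3608 in the control TAC and 2912 to 3282 in the knockout TAC libraries, so the sums overlapped. Muc16 and Upk3b were not called without control TAC replicate 2 or knockout TAC replicates 1 or 2 (adjusted p up to 0.093 and 0.088, in that order). With knockout TAC replicate 3 left out 9 members were called higher, with control TAC replicate 1 left out 7, with control sham replicate 1 left out 5 and with control sham replicate 3 left out 4. The higher count was 0 without control TAC replicate 2 or knockout TAC replicate 1 or 2. Upk3b was also not called with no filter on low values or by voom, and Muc16 not by edgeR.

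Erythroid genes had 2 of 8 called higher, beside 4.10% of all genes. These were the haem synthesis enzyme Alas2 (162, 133 and 98.8 in the control and 324, 366 and 168 in the knockout libraries, difference 1.07 ± 0.25, adjusted p = 0.019) and the alpha-globin Hba-a1 (1.19 ± 0.31, 0.034), which has a near-identical copy. Alas2 was not called without control TAC replicates 2 or 3 or knockout TAC replicates 1 or 2 (adjusted p up to 0.11), and Hba-a1 missed the threshold without control TAC replicates 2 or 3, control sham replicates 1 or 3 or knockout TAC replicates 1 or 2 (adjusted p up to 0.13). Both calls ended with the trend removed, and 6 erythroid genes were called without knockout TAC replicate 3, 1 without control TAC replicate 2 or 3 and none without knockout TAC replicate 1 or 2. Their summed level was 4796 to 6454 in the control and 5295 to 13147 in the knockout TAC libraries. By limma-trend none of 23 endothelial, 27 macrophage and myeloid, 7 lymphocyte, 5 adipocyte or 11 Schwann and neuronal markers was called, with 5, 7, 3, 3 and 2 of them at an unadjusted p under 0.05. DESeq2 called 5 macrophage markers and 1 lymphocyte marker, edgeR 1 of each, voom 4, 8, 3, 3 and 0 of the 5 lists in that order, and DESeq2 and edgeR none of the others. Without knockout TAC replicate 3 limma-trend called 4 macrophage, 3 lymphocyte, 2 endothelial and 1 adipocyte markers higher and 1 adipocyte marker lower, and without each of the other libraries at most 3 markers of any of these lists. With all 12 libraries 1 of 19 smooth muscle and pericyte markers was called, Ndufa4l2 (0.66 ± 0.18, adjusted p = 0.036). Ndufa4l2 was not called without control TAC replicates 1, 2 or 3, knockout TAC replicates 1 or 2 or knockout sham replicates 1, 2 or 3 (adjusted p up to 0.19). It was also not called with the trend removed (adjusted p = 0.27), and the list held 4 higher and 1 lower calls without knockout TAC replicate 3, 3 higher and 1 lower without control sham replicate 3 and 2 higher without control TAC replicate 3. The 23 endothelial markers summed to 35367 to 36598 in the control and 41032 to 42832 in the knockout TAC libraries, and the 30 macrophage markers to 6829 to 10734 and 7689 to 12601, with no read of Trem2 in the TAC libraries.

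Noncoding RNAs were among the called genes at both ends. Rn7sk, the small nuclear RNA that holds the elongation factor P-TEFb inactive and carries no poly(A) tail, was higher in knockouts at 45.4, 112 and 125 in the control and 424, 278 and 274 in the knockout libraries (1.87 ± 0.30, adjusted p = 0.0048, a mean 3.45-fold higher). Control replicate 1 was the lowest of its group, and the sham libraries of both genotypes stood with the knockouts at 376 ± 57.4 in control and 393 ± 50.2 in knockout. The knockout effect on Rn7sk was not shown to differ between TAC and sham (limma-trend adjusted p = 0.087). Lncpint, a long noncoding RNA that p53 induces, was lower at 121, 114 and 68.1 in the control and 16.4, 11.1 and 9.82 in the knockout libraries (−2.91 ± 0.35, adjusted p = 0.00036). Malat1, a nuclear speckle RNA, had 37317, 35148 and 29453 in the control and 13238, 7397 and 11756 in the knockout libraries (difference −1.69 ± 0.24, adjusted p = 0.0014), and Kcnq1ot1, an imprinted antisense RNA, had 227, 187 and 231 in the control and 71.5, 46.6 and 62.2 in the knockout libraries (−1.84 ± 0.23, adjusted p = 0.00044). The strand setting of the counting is not given in the sources used here, so reads of Kcnq1ot1 and Kcnq1 may not be told apart. Malat1 and Kcnq1ot1 were chosen after their values were seen. None of these 4 calls was lost without any single library or with the trend removed.

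Other genes with large rises had low counts and mostly rested on single libraries. Zfp580, a zinc finger protein, had values of 11.9, 18.5 and 30.8 in the control and 49.2, 53.2 and 68.7 in the knockout libraries (difference 1.52 ± 0.30, adjusted p = 0.0079) and was called without each library in turn. The membrane protein Tmem171 was at 1.35 ± 0.29 (adjusted p = 0.012), and Nat8l, which makes N-acetylaspartate, at 1.31 ± 0.29 (0.015). Cryba4, a crystallin of the lens, was at 1.23 ± 0.34 (adjusted p = 0.035), Apol10b, an apolipoprotein L, at 1.22 ± 0.28 (0.015), Lad1, ladinin, at 1.19 ± 0.31 (0.029), and Lrrc4b, a synaptic adhesion protein, at 1.15 ± 0.25 (0.013). All 6 lost their calls without knockout TAC replicate 2, and each in 2 (Nat8l) to 5 (Cryba4) of the 12 fits that left a library out, with adjusted p up to 0.15. Cryba4, Lad1 and Lrrc4b were also not called with the trend removed.

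After sham surgery the same contrast of genotypes gave no called gene by limma-trend (0 of 13916), with 604 at an unadjusted p under 0.05, and DESeq2 called 1 and edgeR and voom none. The difference between the genotype effects after TAC and after sham was called for 43 genes (0.309%), 41 of them more negative after TAC. It was called for 8 genes without control TAC replicate 2, 755 without control sham replicate 1 and 283 without knockout TAC replicate 3. The list medians after sham were −0.17 for matrix, −0.14 for collagens, 0.17 for hypertrophy and 0.02 for oxidative phosphorylation genes. For Thbs4 the difference between the effects was −3.27 ± 0.31 (adjusted p = 0.0001), for Comp −3.31 ± 0.40 (0.0018) and for Cilp −3.09 ± 0.40 (0.0043). For Myh7 it was −2.86 ± 0.37 (adjusted p = 0.0043), and its sham values were 3664 ± 1111 in control and 10003 ± 441 in knockout libraries, a difference of 1.50 that was not called (adjusted p = 0.67). These 4 calls were kept without each library in turn. By limma-trend none of the 71 oxidative phosphorylation genes passed this test, so their rise after TAC was not shown to differ from the difference after sham.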

How the data were processed

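Polyadenylated RNA from the left ventricular apex was sequenced in 12 libraries, 3 for each of 4 groups. Per the submitters' processing notes, reads were handled with STAR, SAMtools and featureCounts on GRCm38.p6; the sources used here name neither versions, strand setting nor the normalisation tool. The signal values as deposited are reads that the authors divided by 1 size factor per library: 100% of the values came out as whole reads within 0.01. Those factors matched median-of-ratios size factors of the recovered reads (largest difference 1.96e-11), so the values were used unscaled.

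Gene IDs were matched to GENCODE M21 (55480 of 56350, of which 55180 had the same version), and the 870 unmatched held 0.0013% of the reads. Genes that reached 10 in 3 or more libraries were fitted on log2(value + 1), a pseudocount of 1, with limma-trend (limma 3.58.1, R 4.3.3, robust moderation), 4 group means over all 12 libraries and Benjamini-Hochberg adjustment at 0.05, so that adjusted p-values below are those of limma-trend unless another tool is named. The count test that the design held for raw counts was run as an alternative, since the table is normalised. The trend removal subtracted in each library a loess curve (span 0.5) on transcript length and GC content, known for 99.9% of the genes tested. The curve was fitted to the log2 value minus the gene's mean over all libraries. Other alternatives were edgeR 4.0.16, DESeq2 1.42.0 and voom with quality weights on the recovered reads, TMM scaling, pseudocounts of 0.5 and 5, no filter, a filter at 50, the 6 TAC libraries alone, a replicate block and leaving out each library. The main limma-trend fit was tested on simulated counts for the TAC contrast only. Those counts carried no trend of length or GC content, and the alternatives were not simulated. Between libraries of a group the chi-square per gene was 5.32 to 57.0, so no 2 libraries agreed within sampling noise.

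Named genes were 22 set by name, the 12 highest and 12 lowest called genes with a mean of at least 20 in the TAC libraries and no overlap between groups, and up to 4 members with the smallest p of each list described; some of these genes are not reported here. Hopx, Stard10, Tbx5, Pi16, Pln, Tgfbr2, Malat1, Kcnq1ot1, Hey1 and Fahd2a were chosen after their values were seen. Members, lists and tests were chosen with earlier results of these data known.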

Additional observations from a re-analysis of the deposited data

Results flagged for a closer look

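The effect of the knockout differed between TAC and sham for 43 of 13916 genes by the test of the difference itself in limma-trend (0.309%). In the genes named here the values are the knockout effect after TAC minus that after sham, on the log2 scale. For matrix genes they were −3.27 in Thbs4, −3.31 in Comp, −3.09 in Cilp, −3.22 in Fmod, −2.55 in Ltbp2 and −3.64 in Angptl7. For collagens they were −4.03 in Col12a1, −1.61 in Col8a1 and −1.02 in Col5a2. Fetal and load-responsive muscle genes had −5.44 in Myl7, −2.40 in Myl4, −2.86 in Myh7, −1.57 in Ankrd1, −1.95 in Xirp2 and −2.16 in Ttn. The size for Myl7 depends on the pseudocount of 1, since its counts were low. The coactivator Ppargc1b had −1.91, the deiodinase Dio2 −3.18, and the noncoding RNAs Lncpint, Malat1 and Kcnq1ot1 −2.65, −1.92 and −1.86.

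The 2 called genes with a more positive effect after TAC were Hey1, a repressor of the Notch pathway, at 1.15 and Fahd2a, of the fumarylacetoacetate hydrolase family, at 0.83. Without control TAC replicate 2 the test was still passed by Comp, Thbs4, Cilp, Myh7, Xirp2 and Ppargc1b, which passed it without each of the 12 libraries, and by none of the others named here, which lost it in 2 to 9 of the 12 fits (adjusted p up to 0.18). Hey1 and Fahd2a each lost it in 9.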

How the results depend on the processing

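Genes called between the genotypes after TAC numbered 1145, 481 with the length and GC trend removed and 3812 by voom with quality weights, with 570, 267 and 1924 higher and 575, 214 and 1888 lower. Leaving out 1 library gave 202 to 2143 calls, 52 to 1066 higher and 144 to 1077 lower. Each of the other alternatives kept these counts within 1.5 times. The difference between the effects after TAC and sham, called for 43 genes, was called for 480 by DESeq2, 17 with the trend removed, 124 with no filter, 65 with a pseudocount of 5, 1573 by voom and 8 to 755 without 1 library. After sham DESeq2 called 1 gene, and leaving out 1 library gave 0 to 1. Of 103 named genes called, 35 lost the call with the trend removed, 55 without at least 1 library, 6 in the TAC libraries alone, 5 with no filter, 1 by edgeR, 2 by voom, and 0 by DESeq2, with TMM scaling or with either pseudocount. Of 14 named genes not called, 9 gained a call without at least 1 library, 6 by DESeq2, 3 by voom, 2 in the TAC libraries alone, 1 each by edgeR, with a pseudocount of 5 and with the filter at 50, and 0 with the trend removed, with no filter, with TMM scaling or with a pseudocount of 0.5. The sign turned in Nppb (0.24 by voom, −0.35 to 0.40 without 1 library), Myh6 (0.10 with the trend removed, −0.30 to 0.10 without 1 library) and Atp2a2 (0.025 with the trend removed), and the cause was not tested.

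With the replicate number as a block 1198 genes were called, 588 higher and 610 lower. Same-numbered knockout and control TAC libraries deviated from their group means with r of −0.0065, 0.026 and −0.0098 over genes. The sham libraries did not enter this check, and a shared origin of same-numbered libraries was not tested. Of the named genes mt-Cytb, Cdk4 and Tgfbr2 were not called in that fit, and Acta1 was called in it.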
